A study of Mus musculus with 2 samples.

Results

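The proteins described here carry organic anions, organic cations, carnitine, urate, lactate and related small molecules across cell membranes. They were read in whole kidney RNA of a control and a cystic mouse kidney, on 1 Affymetrix array each. The set holds every probe set that names a single gene whose symbol in the platform annotation belongs to the solute carrier families Slc22, Slc17, Slc47, Slc16 and Slco or to the Abcc family of ATP-driven exporters. It comprises 119 of 45037 probe sets and 67 of 18193 named genes. In both groups the mice carried inv-deltaC::GFP, a transgene for inversin without its C-terminus joined to green fluorescent protein. The control was +/+ at the inv locus, and the cystic kidney was inv/inv, a mouse model of nephronophthisis type 2 in which this transgene is introduced and kidney cysts form without altered left-right placement of organs. By the series design the mice were 4 weeks old, and the labels of the cystic array add 28 days and female sex, while the control array has neither label. The sources used here do not give the promoter that drives the transgene, nor how many animals gave the RNA of an array.

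In the kidney these transporters are best known from the proximal tubule. Drugs, toxins and metabolic waste enter the tubule cell from the blood through basolateral carriers of the Slc22 family, which exchange organic anions against dicarboxylates or let organic cations follow the membrane potential. They leave into the urine through apical carriers such as Slc47a1, Slc17a1, Slc17a3 and Abcc4, while apical Slc22a12 and Slc22a13 take urate and related anions back. Monocarboxylate carriers of the Slc16 family move lactate, ketone bodies, creatine and aromatic amino acids, mostly across the basolateral membrane. Side was assigned from such general knowledge for 12 basolateral and 13 apical genes of the set, and 42 genes were given no side because they act elsewhere or their place was uncertain.

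The sequences before the start sites of 5 Slc22 genes are shown. They come from 1 run of 7 neighbours on mouse chromosome 19 that were all lower in the cystic kidney, with the values given further on. Slc22a19 and Slc22a26 of this run are not shown, so the comparison of windows covers a part of it. Each sequence shown is the 250 bases upstream of the RefSeq start site, in the direction of the gene, from the GRCm38.p6 assembly. Capitals mark AGGTCA or its reverse complement TGACCT, the half-site of nuclear receptors such as HNF4A. Slc22a6 is at chr19:8617746-8617995 and Slc22a8 at chr19:8592932-8593181, both on the plus strand. On the minus strand, Slc22a27 is at chr19:7966028-7966277, Slc22a29 at chr19:8218901-8219150 and Slc22a30 at chr19:8405106-8405355.
Slc22a6: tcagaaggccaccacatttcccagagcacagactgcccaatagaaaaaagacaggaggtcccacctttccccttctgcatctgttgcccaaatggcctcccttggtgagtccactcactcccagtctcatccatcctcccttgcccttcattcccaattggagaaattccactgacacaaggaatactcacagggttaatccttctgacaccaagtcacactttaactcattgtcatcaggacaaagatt
Slc22a8: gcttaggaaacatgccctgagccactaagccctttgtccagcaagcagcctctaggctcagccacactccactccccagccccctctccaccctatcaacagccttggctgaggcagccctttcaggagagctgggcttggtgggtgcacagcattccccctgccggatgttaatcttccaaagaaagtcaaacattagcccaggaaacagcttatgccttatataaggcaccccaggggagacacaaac
Slc22a27: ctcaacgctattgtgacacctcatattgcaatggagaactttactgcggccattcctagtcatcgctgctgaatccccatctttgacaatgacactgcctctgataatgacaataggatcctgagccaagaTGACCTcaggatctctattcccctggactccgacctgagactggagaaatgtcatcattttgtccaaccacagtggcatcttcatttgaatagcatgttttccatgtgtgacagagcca
Slc22a29: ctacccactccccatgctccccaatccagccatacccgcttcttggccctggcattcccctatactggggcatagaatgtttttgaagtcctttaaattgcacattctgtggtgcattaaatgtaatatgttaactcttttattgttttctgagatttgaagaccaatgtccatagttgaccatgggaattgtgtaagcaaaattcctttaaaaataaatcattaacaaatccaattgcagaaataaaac
Slc22a30: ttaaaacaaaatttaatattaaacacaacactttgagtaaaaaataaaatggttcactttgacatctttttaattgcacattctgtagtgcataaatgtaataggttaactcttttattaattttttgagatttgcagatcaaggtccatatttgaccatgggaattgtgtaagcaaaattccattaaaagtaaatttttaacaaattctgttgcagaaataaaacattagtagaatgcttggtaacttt
The half-site began 119 bases before the start site of Slc22a27, and these letters were not in the other windows shown. The Slc22a29 and Slc22a30 windows were the most alike, identical at 175 of 221 aligned positions (79.2%), and every other pair lay between 58.4% and 64.9%. These shares leave out gaps, 58 bases in the first pair and 90 in that at 64.9%. No unrelated promoters were aligned, so the lower shares have no baseline. RefSeq promoters were matched for 53 of the 67 genes, as 62 windows of 300 bases. The half-site was in 10 of these windows (16.1%), and in 2 of the 20 windows of genes that were lower in the cystic kidney. It was in 16.3% of 32851 promoters of that length, a count that leaves out 1 chromosome. The genes were chosen with their values known, so these matches are a description of the sequences.

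The values are MAS5 signals, a linear intensity per probe set, and a gene takes its brightest probe set. The floor is the median signal of an array, 55.4 for control and 61.9 for cystic. A gene under both floors was called not measured, and a gene under 1 floor gives a bound, written as at least N-fold. With 1 array per group there is no spread between animals and no test, so "rose", "fell", "lower" and "higher" with a count refer to a fixed 2-fold limit, and log2 ratios are cystic minus control. Of the 67 genes, 48 were measured, 39 of them above the floor on both arrays. The cystic array, labelled female, read Xist, the RNA of the inactive X chromosome, at 57.4, under its floor, against 387 in the control. Another Xist probe set read 2.3 on the cystic array against 281.6 for the control, and the remaining one was under both floors. The Y-linked genes Eif2s3y, Kdm5d and Uty lay above the floor on both arrays, at 132, 152 and 206 (control) and 142, 194 and 198 (cystic). The cystic array thus read Y-linked genes but not Xist above its floor, which disagrees with its female label. The control array read both above its floor. The sexes and numbers of animals that gave each RNA are unsettled.

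Of the 48 measured genes, 22 (45.8%) fell at least 2-fold in the cystic kidney and 3 (6.25%) rose. Over all 12015 measured genes of the arrays, 3.78% fell and 7.06% rose by the same limit. The median log2 ratio of the transporter genes was -0.85, beside 0.09 for all measured genes, and 34 of the 48 had a ratio below 0. Counted by probe set, 31 of 78 measured probe sets fell and 4 rose, against 3.37% and 6.19% of all measured probe sets naming 1 gene. With the arrays brought to 1 median signal, 25 transporter genes fell and 2 rose, and over all genes 672 fell and 608 rose in place of 454 and 848. That centring moved the median of all genes to -0.07 and shifted every ratio by the same amount. With the limit at 1.5-fold, 29 transporter genes fell and 6 rose, when 10.8% of all measured genes fell and 16.4% rose.

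**Figure D1:**
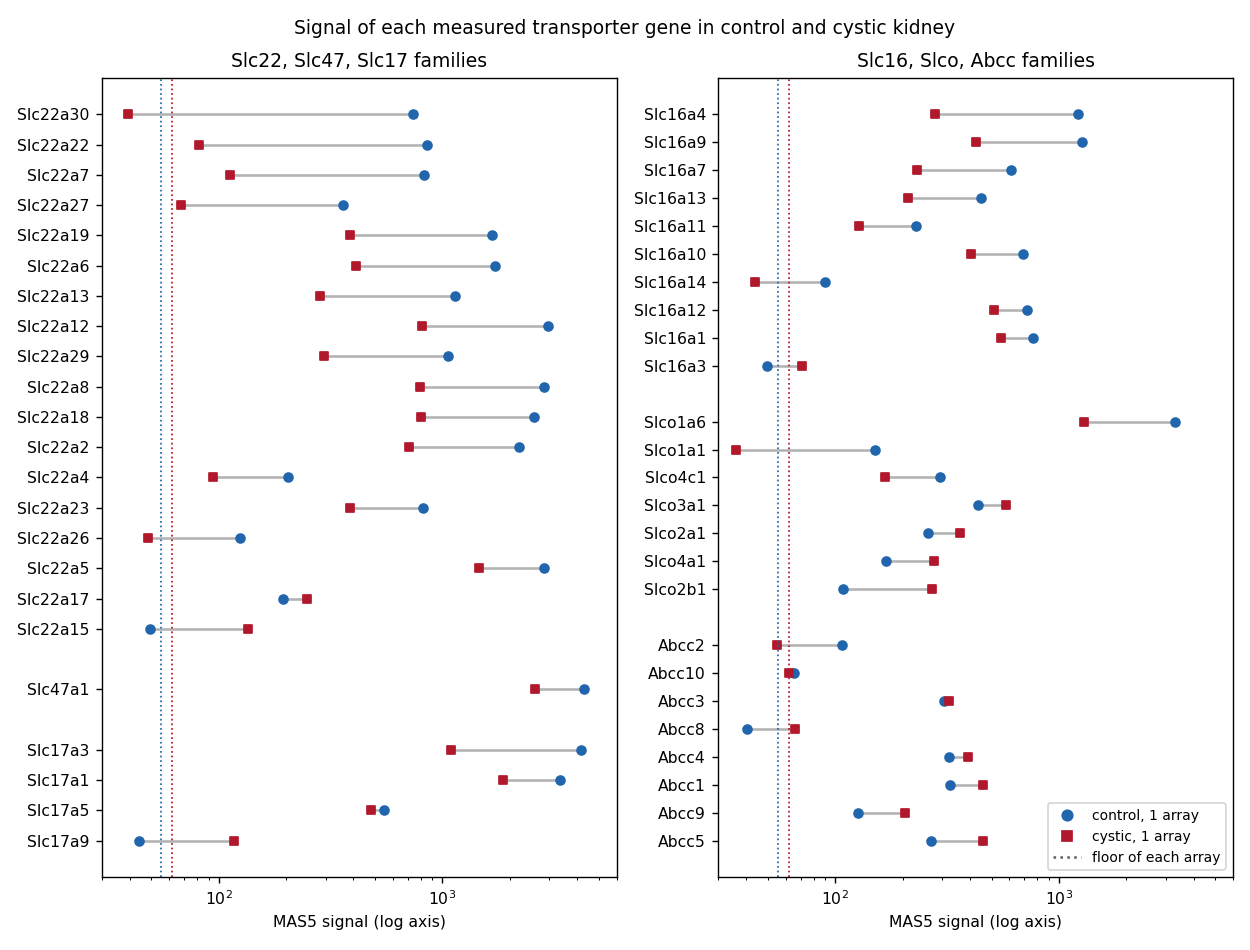
MAS5 signal (log axis) of each of the 48 measured transporter genes, with 1 row per gene, a circle for the control array and a square for the cystic array, ordered within families by log2 ratio. Dotted lines are the floors, 55.4 and 61.9; most Slc22 rows run to the left from control to cystic, and most Abcc rows are short and run to the right.

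The families differed in how many members fell. In the Slc22 family 15 of 18 measured genes fell and 1 rose, with a median log2 ratio of -1.83. In the Slc16 family 4 of 10 fell and none rose (median -0.81), in Slc17 1 of 4 fell and 1 rose (median -0.53), and Slc47 was read through Slc47a1 only. In the Slco family 2 of 7 fell and 1 rose. In the Abcc family none of 8 measured genes passed 2-fold, with a median of 0.27 and values from -0.79 to 0.77. Outside Slc22, 7 of 30 measured genes fell and 2 rose, and the median was -0.48.

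Slc22a6 and Slc22a8 encode OAT1 and OAT3, the main basolateral entry routes of organic anions into the proximal tubule. The control signal of Slc22a6 was 1713 and the cystic signal 409.6, a 4.18-fold lower value. A second Slc22a6 probe set went from 284 to 49.9, under the floor, and was at least 4.58-fold lower. Slc22a8 went from 2830.1 to 797, 3.55-fold lower, and its second probe set from 165 to 77.4, 2.13-fold lower. Both genes were thus past the limit at each measured probe set. Slc22a22, a basolateral prostaglandin carrier of the mouse kidney, went from 850.1 to 81.3 and was 10.5-fold lower, the lowest log2 ratio (-3.39) among set members above the floor on both arrays.

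On the apical side, Slc22a12, the urate reabsorber URAT1, went from 2959.6 to 810.2 and was 3.65-fold lower. The other Slc22a12 probe set, from 635 to 241, was 2.64-fold lower. Slc22a13, an apical carrier of urate and nicotinate, went from 1136 to 282, 4.03-fold lower. Slc22a19, the apical organic anion transporter 5 of rodents, went from 1667 to 388, 4.30-fold lower. Slc22a7, or OAT2, which lies in the brush border in mice and on the basolateral side in humans, went from 830.5 to 112, 7.39-fold lower. Slc22a18, an apical carrier-like protein, fell 3.19-fold, from 2568 to 805, and 2.78-fold at its second probe set. All of these stood well above the floor in the control kidney, and Slc22a7 came nearest to the floor in the cystic kidney.

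The remaining Slc22 genes on chromosome 19 are rodent relatives of the organic anion transporters, and their individual substrates are less well defined. Slc22a30 went from 739 to 39.3, under the floor, and was at least 11.9-fold lower, the largest fall of the set. Slc22a27 went from 359 to 68.1, 5.26-fold lower, with the cystic signal just above the floor. Slc22a29 went from 1059 to 296, 3.57-fold lower. Slc22a26 went from 124 to 48.4, at least 2.00-fold lower, so that it only just passed the limit. Another Slc22a26 probe set had 56.9 and 21.4, both under the cystic floor, and gives no direction. A floor at the 60th percentile put the bound of Slc22a26 at -0.30 in log2, inside the limit. A probe set naming both Slc22a29 and Slc22a30, and therefore left out of the set, went from 1454 to 364.5, 3.99-fold lower. The Slc22a27 and Slc22a29 probe sets are of the type marked as able to bind related transcripts, so values of these close copies are uncertain one by one.

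Slc22a19, Slc22a26, Slc22a27, Slc22a29, Slc22a30, Slc22a8 and Slc22a6 follow each other on chromosome 19 with a single other protein-coding gene inside the run, between Slc22a27 and Slc22a29. All 7 were measured and all 7 fell, with a median log2 ratio of -2.06 and values from -3.58 to -1.003. Other neighbours in the set were fewer and partly unmeasured. Slc17a2, Slc17a3 and Slc17a1 are adjacent on chromosome 13, where Slc17a3 fell, Slc17a1 did not pass 2-fold and Slc17a2 was not measured. Slc22a5, Slc22a21 and Slc22a4 are adjacent on chromosome 11, where Slc22a4 fell (-1.11 in log2), Slc22a5 was just inside the limit (-0.97) and Slc22a21 was not measured. On chromosome 6, Slco1a1 and Slco1a6 fell (-1.28, a bound, and -1.35), and Slco1c1, Slco1b2, Slco1a4 and Slco1a5 of the same run were not measured.

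Organic cations enter the proximal tubule through Slc22a2, or OCT2, and leave through the proton exchanger Slc47a1, or MATE1. Slc22a2 went from 2196 to 707 and was 3.10-fold lower. Slc47a1 went from 4294 to 2582, a ratio of 1.66-fold lower that did not pass the limit. The entry carrier and the exit carrier thus stood at log2 ratios of -1.63 and -0.73, each read by 1 probe set. Slc22a5, the sodium-dependent carnitine transporter OCTN2, had 2847.5 and 1452.5, 1.96-fold lower and just short of the limit. The other Slc22a5 probe set, from 1259.6 to 568, was 2.22-fold lower, and Slc22a5 passed the limit (-1.13 in log2) with arrays brought to 1 median but lay further inside it with quantiles (-0.81) and loess (-0.83). Slc22a4, the ergothioneine transporter OCTN1, went from 203 to 93.9, 2.16-fold lower.

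Of the other Slc22 genes, Slc22a23, an orphan member, went from 821 to 386, 2.13-fold lower. Slc22a17, which encodes a receptor for the iron-carrier binding protein lipocalin 2, had 193 and 247 on the control and cystic arrays, 1.28-fold higher and inside the limit. Slc22a15, a carrier of zwitterions, was under the floor in the control (49.3) and at 135 in the cystic kidney, at least 2.44-fold higher. Its other probe set was not measured (3.5 and 14.4). Slc22a15 was the only Slc22 gene that rose by the limit, and a floor at the 60th percentile lowered its bound to a log2 ratio of 0.62. Slc22a14, Slc22a16 and Slc22a21 were under both floors.

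Slc17a1 and Slc17a3 encode the apical voltage-driven anion carriers NPT1 and NPT4, which export urate and other anions into the urine. Slc17a3 went from 4149 to 1093 and was 3.80-fold lower. Slc17a1 went from 3362 to 1859, 1.81-fold lower and short of the limit. Slc17a1 passed it (-1.01 in log2) with arrays brought to 1 median and lay further inside it with quantiles (-0.67) and loess (-0.70). Each was read by 1 probe set, so the difference between these neighbours has no repeat. Slc17a5, the lysosomal sialic acid exporter sialin, had 547 and 477, 1.15-fold lower. Slc17a9, which loads nucleotides into vesicles, was under the floor in the control (44.2) and reached 116.5 on the cystic array, at least 2.10-fold higher. Its second probe set had 55.4 in the control, exactly at the floor, and 40.9 on the cystic array, so the probe sets of Slc17a9 did not move together. The Slc17a9 call was lost under all 3 other scalings, with log2 ratios from 0.89 to 0.97, and with the higher floor (0.40). The neuronal glutamate carriers Slc17a6 and Slc17a7 were not measured.

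The Slco genes encode organic anion transporting polypeptides for bile salts, steroid and thyroid hormone conjugates and prostaglandins. Slco1a6, a kidney-rich member, went from 3295 to 1293, 2.55-fold lower. Slco1a1, known in the apical membrane and dependent on androgens in mice, went from 150.5 to 35.8 and was at least 2.43-fold lower. Its second probe set, from 130.0 to 7.9, was at least 2.10-fold lower. With the floor at the 60th percentile the Slco1a1 bound was -0.58 in log2, inside the limit. Slco4c1, a basolateral carrier of digoxin and thyroid hormone, had 293 and 167, 1.75-fold lower, and 1.29-fold lower at its second probe set. These 3 were the measured Slco genes with ratios below 0.

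The other 4 measured Slco genes had ratios above 0. Slco2b1, a carrier of steroid sulfates found in many tissues, rose from 109 to 271, 2.50-fold. Its second probe set went from 133 to 220.5, 1.65-fold higher and inside the limit. Slco4a1, a thyroid hormone carrier, had 169 and 277 at its brightest probe set, 1.64-fold higher, and 147 and 318 at its second, 2.16-fold higher. Slco2a1, the prostaglandin transporter, had 261 and 359, 1.38-fold higher, and its 4 measured probe sets had log2 ratios from 0.23 to 0.95. Slco3a1, a widely expressed member, had 433.5 and 581, 1.34-fold higher, and was above 0 at each of 3 probe sets. The family median was 0.42, but -0.031 with the floor at the 40th percentile and -0.22 with no floor, settings that bring in dim Slco genes, so it gives no stable direction.

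Among the monocarboxylate carriers, Slc16a9, which carries carnitine and creatine, went from 1263 to 427 and was 2.96-fold lower, and its other probe sets were 2.61-fold and 2.36-fold lower. Slc16a7, or MCT2, a high-affinity carrier of pyruvate and ketone bodies, went from 608 to 232, 2.62-fold lower. Slc16a13, a lactate carrier, went from 449 to 212, 2.12-fold lower, and its neighbour Slc16a11 had 229 and 128, 1.79-fold lower. Slc16a4, an orphan member, went from 1216 to 279.5 at its brightest probe set, 4.35-fold lower. Its second probe set went the other way, from 84.2 to 148, 1.75-fold higher, so the fall of Slc16a4, which was -0.65 in log2 as a median over probe sets, rests on 1 probe set of a type that can be shared among transcripts.

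The 3 Slc16 genes assigned here to the basolateral side did not pass the limit, and the 4 Slc16 genes that fell were given no side. Slc16a1, or MCT1, the broad lactate and pyruvate carrier, had 762 and 550.1, 1.38-fold lower. Slc16a12, a creatine and guanidinoacetate carrier, had 722 and 511, 1.41-fold lower. Slc16a10, the aromatic amino acid carrier TAT1, had 688 and 404, 1.70-fold lower, with 2.22-fold lower (310.0 to 139.9) at its second probe set. Slc16a3, or MCT4, the lactate exporter of glycolytic cells, was under the floor in the control (49.4) and at 70.7 in the cystic kidney, at least 1.28-fold higher. Slc16a14 was at least 1.45-fold lower, from 89.9 to 43.7, but its log2 ratio was 0.17 with a floor at the 60th percentile, so its direction depends on the floor. Slc16a5, Slc16a6 and Slc16a8 were not measured.

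The Abcc genes encode ATP-driven exporters of conjugates and, in Abcc8 and Abcc9, the sulfonylurea receptors of potassium channels. Abcc4, or MRP4, the apical exporter of anions and cyclic nucleotides, had 321 and 389.7, 1.21-fold higher. Abcc2, or MRP2, the other apical exporter, had 107 and 54.7, at least 1.73-fold lower. The basolateral exporters Abcc1, Abcc3 and Abcc5 were 1.41-fold, 1.04-fold and 1.71-fold higher at their brightest probe sets. Abcc3, with 307 and 321, lay above 0 on the deposited scale but at -0.10, -0.048 and -0.027 with arrays centred on their medians, quantiles and loess. The 7 measured probe sets of Abcc5 had log2 ratios from 0.04 to 0.78. Abcc9 had 126 and 205, 1.62-fold higher, with 1.03-fold at the second probe set. Abcc10 had 65.3 and 62.0, and Abcc8 only a bound of at least 1.19-fold higher. Abcc6 and Abcc12 were under both floors.

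**Figure D2:**
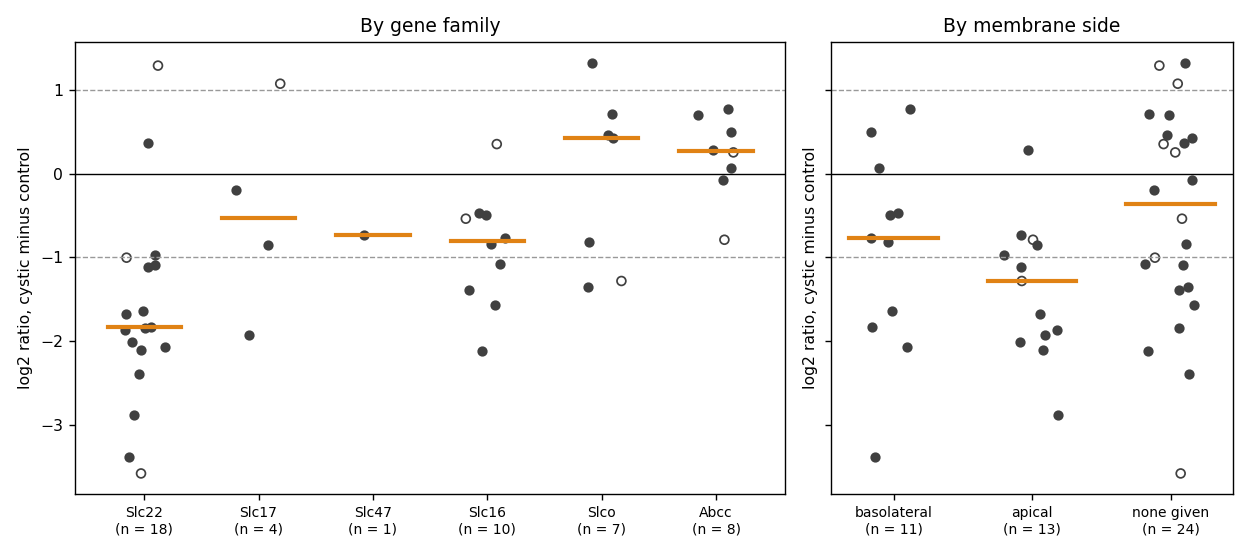
Log2 ratio (cystic minus control) of each measured transporter gene by family (left) and by assigned membrane side (right), with filled points above the floor on both arrays, open points for bounds and a bar at the median. Dashed lines mark the 2-fold limit; 15 of 18 Slc22 points lie on or under the lower line and none of 8 Abcc points passes either line.

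By membrane side, 4 of 11 measured basolateral genes and 8 of 13 apical genes fell, and no gene of either side rose. The median log2 ratios were -0.77 for the basolateral and -1.28 for the apical genes. The sides did not hold the same families: the 4 basolateral genes that fell were all of Slc22, and 3 of the 11 basolateral genes were of Abcc and had ratios above 0 on the deposited scale. Within Slc22, all 4 basolateral genes fell (median -1.95) and 6 of 7 apical genes fell (median -1.87). Outside Slc22, none of 7 basolateral genes fell (median -0.47) and 2 of 6 apical genes fell (median -0.82). These counts depend on the assignment of sides, since the 4 Slc16 genes that fell were given none. The difference between sides was therefore not seen within Slc22, and it was not tested, since each group has 1 array. Of the 24 measured genes with no side, 10 fell and 3 rose, and the median was -0.37.

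Genes with several probe sets gave the only repeat of a measurement, from the same RNA. Of 20 transporter genes with at least 2 measured probe sets, 18 had ratios of 1 sign and 13 had the same call at each probe set, once signals under a floor were raised to it. Slc16a4 and Slc22a26 had both signs, the latter through signals below the cystic floor. Slc17a9 counts among the 18 only because its signal of 40.9 was raised to the cystic floor. Across the 15 genes with 2 or more probe sets above the floor on both arrays, the pooled SD of the log2 ratios was 0.53, against 0.29 over 4694 such genes of the arrays. Most of the spread among the 15 came from Slc16a4, whose 2 probe sets lay 2.93 apart in log2. The value of 0.53 is therefore not typical of the other genes. The spread between probe sets can hold differences between transcripts of a gene as well as technical ones, and it leaves out differences between animals.

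**Figure D3:**
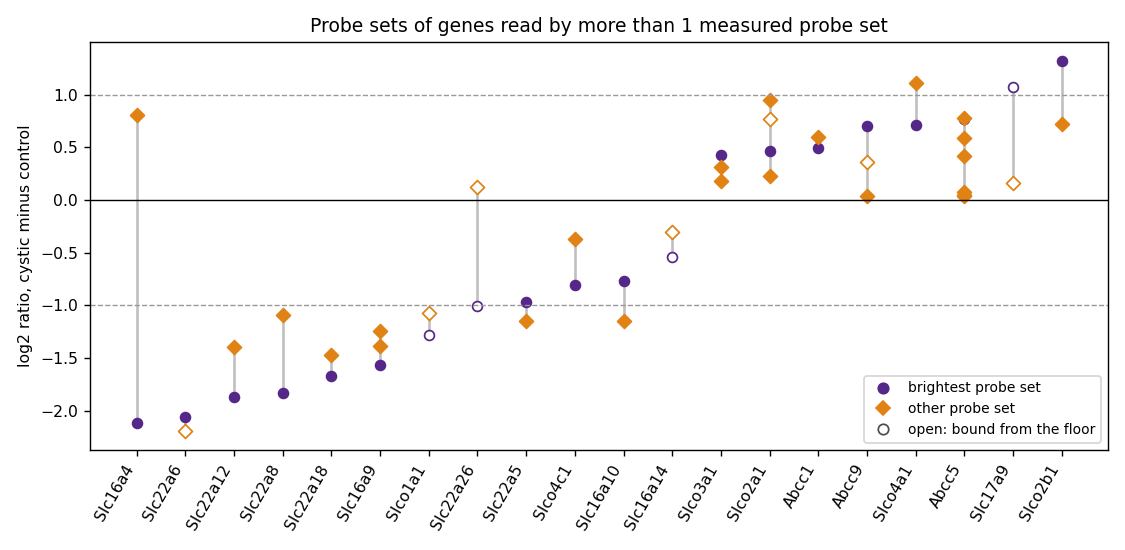
Log2 ratio (cystic minus control) of every measured probe set for the 20 transporter genes read by more than 1, with circles for the brightest probe set, diamonds for the others and open symbols for bounds. The probe sets of Slc16a4 lie apart at -2.12 and 0.81, while those of Slc22a6 are at -2.06 and, as a bound, -2.20.

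Genes that work with these carriers were read from a list of 25 partners and regulators, of which 19 were measured. Of these, 4 fell and none rose, and the median was -0.61. Slc13a3, the basolateral dicarboxylate carrier that supplies the exchange of OAT1 and OAT3, went from 2150.1 to 757, 2.84-fold lower. The apical dicarboxylate carrier Slc13a2 was 2.11-fold lower (785 to 371.5). Slc5a8, an apical sodium-coupled carrier of lactate, went from 1164 to 269, 4.33-fold lower, while Slc5a12, its low-affinity relative, had 3439 and 1899.9, 1.81-fold lower. Pdzk1, the scaffold that binds apical URAT1, NPT1 and OCTN2, went from 5393 to 2448, 2.20-fold lower.

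Other partners stayed inside the limit. Abcg2, an apical urate and drug exporter, had 3289 and 1645, which is 1.999-fold lower. Bsg, the chaperone of MCT1 and MCT4, was 1.25-fold lower, and Emb, the chaperone of MCT2, 1.95-fold higher (379 to 739). The transcription factor Hnf4a had 3559 and 1862, 1.91-fold lower, and Ppara 665 and 421, 1.58-fold lower. The transcription factors Ahr (142 and 267, 1.89-fold higher) and Nfe2l2 (1286 and 1662, 1.29-fold higher) went the other way. Over the 19 measured partners and regulators, 14 had ratios below 0 and 5 above. The sodium pump subunit Atp1b1 had 8065 and 7214, 1.12-fold lower.

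In whole kidney RNA, fewer cells of a type and less RNA per cell cannot be told apart. Proximal tubule markers outside the set moved with the Slc22 genes: none rose and 17 of 23 fell, their median was -1.15, and their summed signal was 100391 on the control and 47432 on the cystic array. Among them Miox fell 2.96-fold and Fbp1 2.15-fold, while Slc34a1 was 1.65-fold and Kap 1.15-fold lower. Markers of fibroblasts and smooth muscle rose in 10 of 10 (summed signal 6782 and 30038) and those of macrophages in 9 of 11 (2149.7 and 10333), and 6 of 7 measured injury markers rose. The lowest signal of a macrophage or fibroblast marker was that of Itgam in the control, 17.5. Loop of Henle and distal tubule markers fell in 3 of 9, of the collecting duct in 2 of 10 and of podocytes in 1 of 4, and none of 8 endothelial markers passed the limit. Of genes known to be higher in male kidneys 4 of 8 fell (median -1.64), and Cyp4a14, the measured gene of those known to be higher in females, was 2.27-fold lower. Kap, Cyp4b1 and Slc7a13 are in both the male list and the proximal tubule list, so these lists are not separate readouts. The 3 measured liver and 2 measured fat markers were inside the limit. The part of cell makeup and of sex in the transporter values was not tested.

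**Figure D4:**
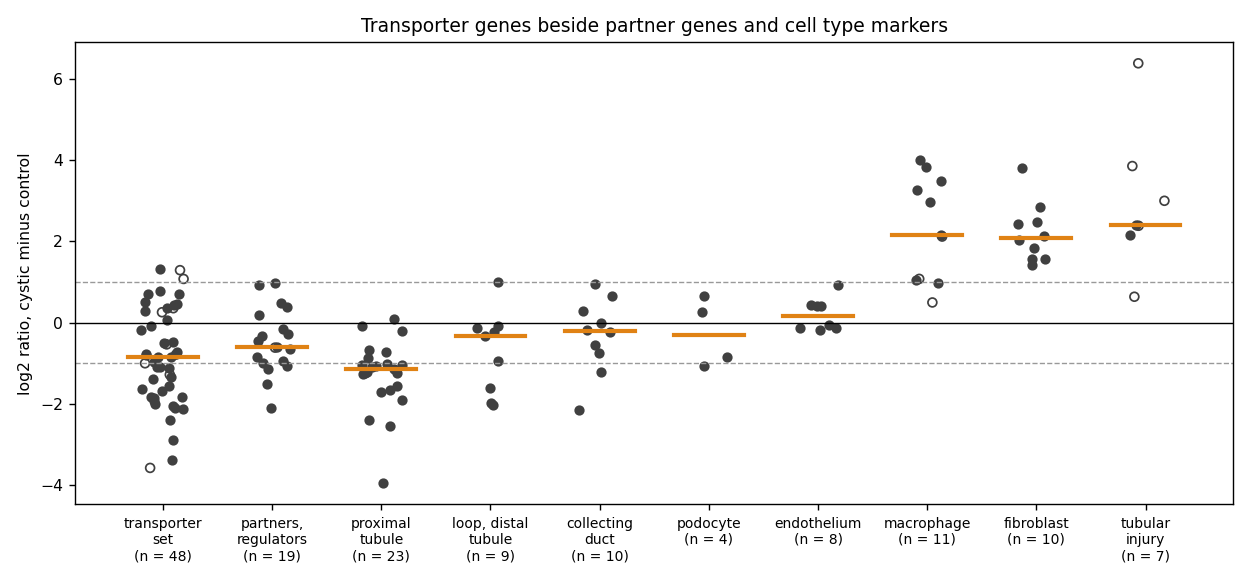
Log2 ratio (cystic minus control) of the 48 measured transporter genes beside partner genes and markers of kidney cell types, with filled points above the floor on both arrays, open points for bounds, a bar at each median and dashed lines at the 2-fold limit. The transporter median (-0.85) lies between those of the partner list (-0.61) and the proximal tubule markers (-1.15), and the macrophage, fibroblast and injury medians lie above 2.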

How the data were processed

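Kidney total RNA of 2 groups was labelled with biotin and read on 1 Affymetrix array per group, grouped by the sample titles. Each deposited value is a linear intensity per probe set, which the authors obtained with MAS5 per the submitters' processing notes. The sources used here give neither its version, nor a scaling target, nor detection calls. The 2% trimmed means of the arrays were 178 and 181, and the deposited scaling was kept. Of 45101 probe sets, 64 controls were left out. Gene names came from the platform annotation and were updated by identifier in a RefSeq table of GRCm38.p6 (34945 probe sets named 1 gene, and 34741 were found there). A gene was read from its probe set of highest mean log2 signal, after each signal under its array's median had been raised to it. Log2 ratios and counts were computed with Python 3.11.15 and pandas 2.3.3, and the steps were tested on simulated arrays. Without replicates no test was run, and the number of arrays limits the precision. The transporter set, sides, gene lists, 2-fold limit and motif were chosen with earlier results of these data known. Every measured transporter could be named, and partners past 2-fold with a choice of the others. Alternatives changed the scaling, the floor, the probe set of a gene and the fold limit.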

Additional observations from a re-analysis of the deposited data

How the results depend on the processing

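Scaling by array medians, quantiles or loess kept the number of transporter genes that fell between 22 and 25 and of those that rose at 2, against 22 and 3 with the deposited scaling. With the floor at the 60th percentile 20 of 45 measured transporter genes fell and 1 rose. Over all 10436 genes measured with that floor, 401 fell and 632 rose. With a 1.5-fold limit 6 of 48 rose and 29 fell. By the median over probe sets 21 of 48 fell and 2 rose, beside 425 and 742 of all 12015 genes. With no floor all 67 transporter genes count, of which 22 fell and 4 rose, beside 662 and 1094 of all 18193 genes. Without probe sets marked as shared, 18 of 41 measured genes fell and 3 rose. The apical median was -1.67 with the floor at the 40th percentile, -1.65 with no floor and -1.01 with the floor at the 60th, when the basolateral median was -0.63, -0.62 and -0.77. The Slco median was -0.031 and -0.22 with the lower floor and none, settings that admit dimmer genes or release bounds. Without probe sets marked as shared, Slc16a4 had a log2 ratio of 0.81, the value of its other probe set. Slc16a11 passed the limit by array medians (-1.001) and quantiles (-1.01) but not loess (-0.99), and Slc16a14 with the lower floor (-1.04) but turned to 0.17 with the higher, while Slc22a4 was at -0.996 with no floor. Of 374 alternative values for the 48 genes, 346 moved by less than the probe-set SD of 0.29, 27 by more, and 1, that of Slc16a4, turned the sign of a gene that had fallen. These counts are no measure of robustness. Centring shifts every ratio alike, and many floor or probe-set settings leave the value of a bright gene unchanged. In 18 of the 374 values, over 10 genes, the gene's call was gained or lost, and none turned a fall into a rise past the limit. No paired analysis was possible because each group has 1 array. Signals near the floor limit the bounds.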
